A study of Mus musculus with 16 samples.

Results

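The genes described here are 50 genes whose products fold, modify, export or degrade proteins of the endoplasmic reticulum (ER). They were chosen by symbol from a list of names. All 50 were among the 27928 genes in the table of RNA-seq values, and all 50 reached the minimum mean of 10 normalized counts used for testing. By role they comprised 12 lumenal chaperones and co-chaperones, 9 oxidoreductases and prolyl isomerases, 13 subunits of the translocon and the signal peptidase, 3 vesicle coat and retrieval receptor genes, 10 genes of ER-associated degradation and 3 sensors of unfolded protein.

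RNA was sequenced from marginal zone (MZ) and follicular (FO) B cells sorted from the spleens of C57BL/6 mice to ask how the transcription factor TFII-I, encoded by Gtf2i, shapes the identity of each subset. There were 4 groups of 2 libraries, namely WT FO, WT MZ, cKO FO and cKO MZ. The WT mice carried neither a floxed allele nor Cre, and the cKO mice carried Gtf2i fl/fl alleles and a Cre that is expressed in B cells. All mice were at least 8 weeks old, FO cells were sorted as CD21lo CD23hi and MZ cells as CD21hi CD23lo. The sources do not say whether the 2 libraries of a group came from separate mice, so the p-values measure only the spread between these libraries. No control carried Cre without the floxed alleles, so Cre and loss of Gtf2i cannot be told apart.

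Secreted and membrane proteins enter the ER through the Sec61 translocon, lose their signal peptide to the signal peptidase, and are folded by chaperones of the Hsp70 and Hsp90 families and by enzymes that form disulfide bonds or turn prolines. Proteins that do not fold are marked by mannosidase-like lectins, pulled back into the cytosol and ubiquitinated, which is ER-associated degradation. The sensors Ern1 (IRE1), Atf6 and Eif2ak3 (PERK) read the load of unfolded protein and raise the transcription of much of this machinery through factors that include Xbp1 and cleaved Atf6. Plasma cells carry a greatly enlarged ER, and MZ B cells are known for turning into antibody-secreting cells faster than FO B cells do.

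The promoters of these genes are the textbook home of the ER stress response element (ERSE, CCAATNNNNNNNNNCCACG). Cleaved Atf6 and Xbp1 bind it together with the CCAAT factor NF-Y. The genes were listed by function, and the element is known from the promoters of such genes. Its share among them is therefore a description and no independent result. RefSeq windows of 250 bases before to 50 bases after the gene start (GRCm38.p6) were found for 40 of the 50 genes, with Ero1l and Ero1lb under the names Ero1a and Ero1b. Both strands were searched. ERSE occurred in 10 of the 40 genes (25%), against 0.137% of all 27025 genes with a window. Each ERSE is given below on its own strand with 5 bases on either side, and the capitals mark its fixed letters.
Hspa5, chr2:34772020-34772048, plus strand: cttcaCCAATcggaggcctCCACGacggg
Hsp90b1, chr10:86705633-86705661, minus strand: caagcCCAATcgcaaggagCCACGcttcg
Hsp90b1, chr10:86705528-86705556, plus strand: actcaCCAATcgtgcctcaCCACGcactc
Calr, chr8:84847070-84847098, plus strand: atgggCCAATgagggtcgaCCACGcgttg
Canx, chr11:50325795-50325823, minus strand: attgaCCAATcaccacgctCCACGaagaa
Dnajc3, chr14:118937822-118937850, plus strand: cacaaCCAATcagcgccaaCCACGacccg
Creld2, chr15:88819515-88819543, minus strand: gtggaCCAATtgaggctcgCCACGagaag
Pdia6, chr12:17266486-17266514, plus strand: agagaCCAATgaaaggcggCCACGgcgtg
Ero1lb, chr13:12565677-12565705, minus strand: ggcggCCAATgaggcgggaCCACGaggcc
Syvn1, chr19:6046527-6046555, plus strand: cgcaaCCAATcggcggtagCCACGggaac
Derl3, chr10:75893237-75893265, minus strand: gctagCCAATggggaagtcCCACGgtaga

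The 10 genes were 6 chaperones, the disulfide isomerase gene Pdia6, the oxidase gene Ero1lb and the degradation genes Syvn1 and Derl3, and Hsp90b1 held 2 copies. A shorter relative, ERSE-II (ATTGGNCCACG), was found in 2 members against 0.0444% of all genes, in Herpud1 before the start and in Dnajb11 just after it. The Xbp1 element UPRE (TGACGTGG) was found in 1 member, the coat gene Sec24d, against 0.714% of all genes. The last 5 letters of UPRE are the reverse complement of the last 5 of ERSE, so a UPRE on one strand can share letters with an ERSE on the other. These are matches of letters only.
Dnajb11, chr16:22857847-22857867, plus strand: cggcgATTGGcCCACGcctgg
Herpud1, chr8:94386372-94386392, plus strand: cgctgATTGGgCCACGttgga
Sec24d, chr3:123267465-123267482, plus strand: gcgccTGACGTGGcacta

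The 250 bases before the start are shown in full for 3 genes that the results turn on. Hspa5 (chr2:34771840-34772089, plus strand) held 1 ERSE, 65 to 47 bases before its RefSeq start, and Derl3 (chr10:75893148-75893397, plus strand) held 1 on the opposite strand, 156 to 138 bases before its RefSeq start. The GENCODE span of Hspa5 begins earlier, at 34771970, and contains this ERSE. Pdia4 (chr6:47813513-47813762, minus strand) had none of the 3 motifs in these letters. Capitals again mark the fixed letters.
Hspa5: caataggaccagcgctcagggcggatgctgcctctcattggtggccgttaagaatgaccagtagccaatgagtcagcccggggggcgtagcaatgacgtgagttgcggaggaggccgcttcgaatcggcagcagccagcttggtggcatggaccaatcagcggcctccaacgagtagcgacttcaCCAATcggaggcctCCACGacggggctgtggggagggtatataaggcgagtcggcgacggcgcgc
Derl3: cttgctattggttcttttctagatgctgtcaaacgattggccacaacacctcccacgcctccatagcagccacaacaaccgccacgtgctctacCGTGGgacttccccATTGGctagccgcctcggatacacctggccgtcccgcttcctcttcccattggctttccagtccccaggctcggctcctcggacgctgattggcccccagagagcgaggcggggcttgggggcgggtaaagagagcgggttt
Pdia4: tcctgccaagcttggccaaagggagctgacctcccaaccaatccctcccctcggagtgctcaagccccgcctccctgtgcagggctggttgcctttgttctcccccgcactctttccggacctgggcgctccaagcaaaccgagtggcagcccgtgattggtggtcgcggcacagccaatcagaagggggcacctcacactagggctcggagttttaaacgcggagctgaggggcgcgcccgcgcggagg

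The libraries held between 21546552 and 25083552 reads on genes, and the RNA of the sorted cells fitted its subset labels. Cr2, which encodes CD21, read 22942 to 26803 normalized counts in the 4 FO libraries and 86953 to 97087 in the 4 MZ libraries, and Fcer2a (CD23) read 24802 to 41973 and 3069 to 6708. Gtf2i itself read 2039.8 and 1992 in FO and 2864 and 2471 in MZ cells of WT, and 1523 and 1531 in FO and 1782 and 1889 in MZ cells of cKO. It was lower in every cKO library than in any WT library, and the genotype difference did not pass by limma (adjusted p = 0.99 in FO and 0.36 in MZ). The authors separately report loss of Gtf2i from B cells in DNA, mRNA and protein. The library cKO MZ replicate 1 stood apart, with 13052 summed normalized counts of 5 erythroid genes and 1842 of 8 granulocyte genes, against 25.9 to 1003 and 22.8 to 105 in the other 7 libraries. Xist, transcribed from the inactive X of female cells, read 25930 to 47002 in the WT libraries, and the Y-linked gene Ddx3y at most 6.34. In the cKO libraries Ddx3y read 2682 to 5514, and Xist exceeded 89.7 only in cKO FO replicate 1, where it reached 14748. Genotype and sex can therefore not be told apart in these libraries, and cKO FO replicate 1 held RNA of both sexes. In libraries of bulk RNA, fewer cells of a type and less RNA per cell cannot be told apart.

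In WT, MZ cells had higher levels of 4 of the 50 genes, namely Mzb1, Pdia4, Derl3 and Edem1, and 1 was lower, Fkbp11. A gene was called when limma, fitted to log2(normalized count + 1) of 14761 genes, gave an adjusted p of at most 0.05 and a difference of at least 1.5-fold. The 5 called genes are 10% of the members, and 12.0% of all tested genes were called in WT, 7.41% higher and 4.62% lower. In cKO the same 5 genes were called in the same directions and Ero1l joined those that were higher, so 6 genes, or 12% of the members, were called against 13.7% of all tested genes, 8.18% higher and 5.54% lower. Neither share was above its background. The members' median difference, MZ minus FO, was 0.046 on the log2 scale in WT and -0.0047 in cKO, beside -0.0048 and -0.0047 over all tested genes.

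**Figure D1:**
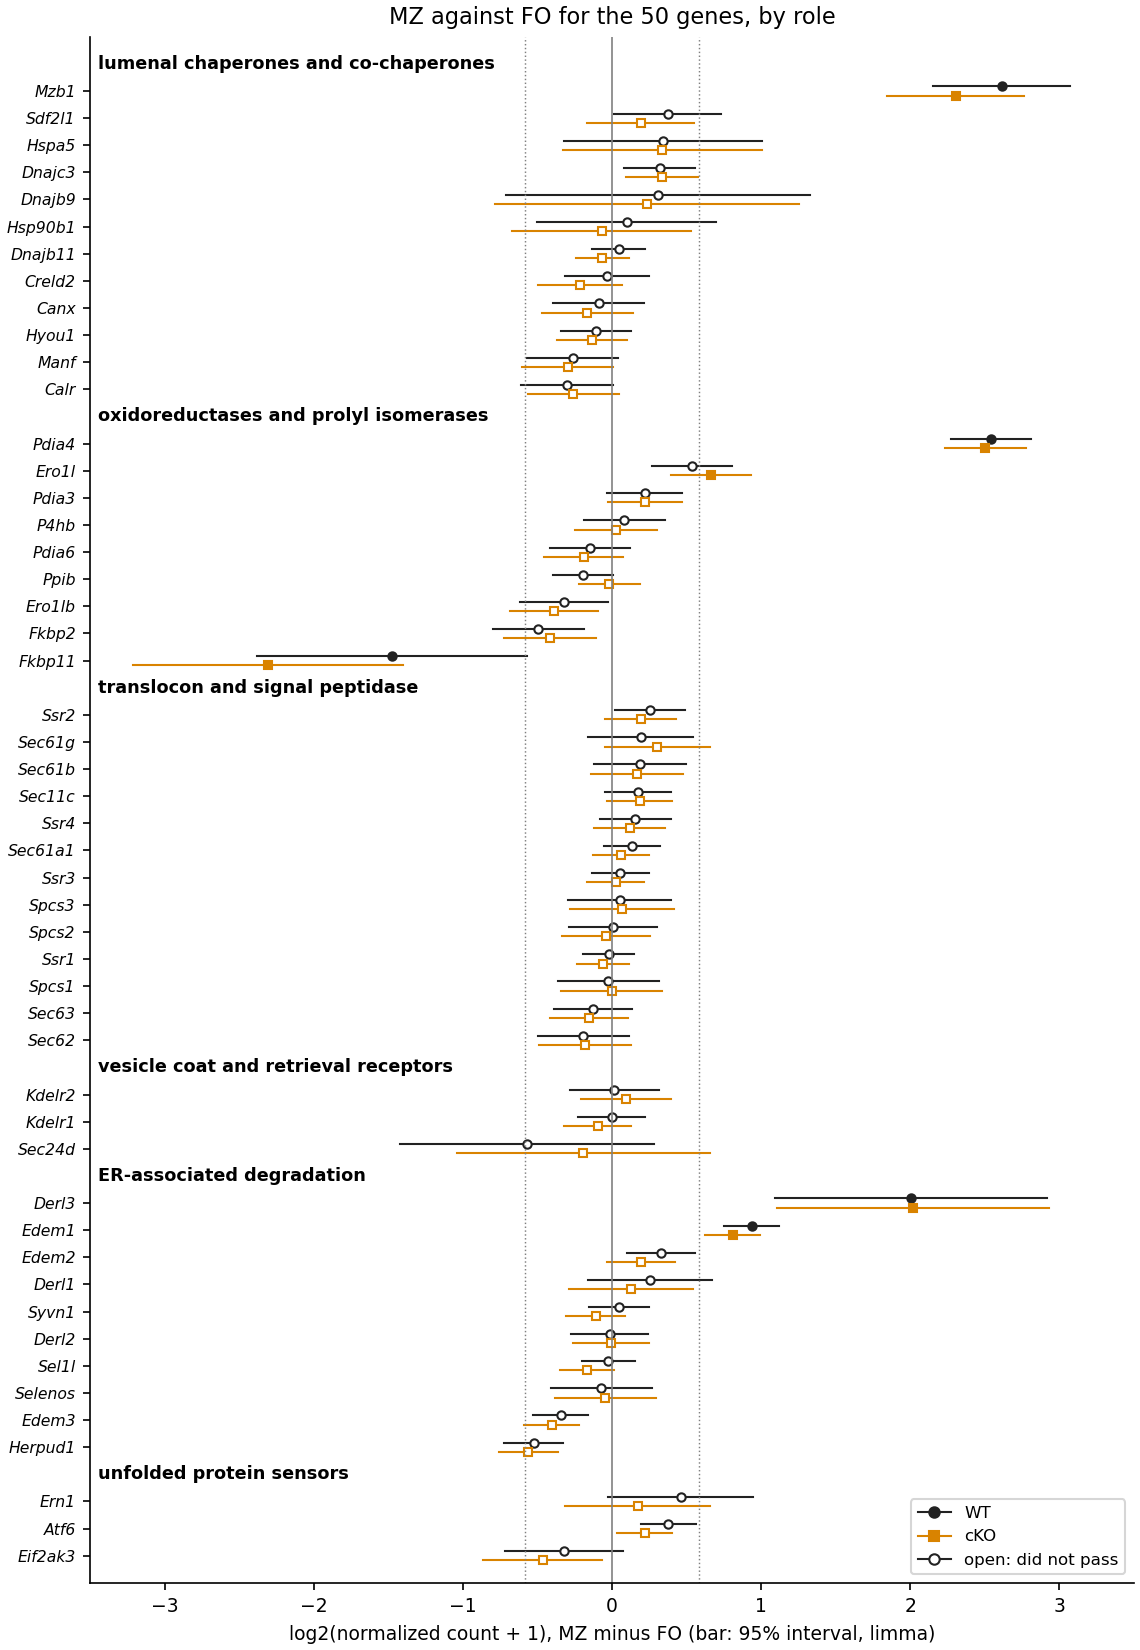
The difference between MZ and FO B cells on the log2(normalized count + 1) scale for each of the 50 genes, in WT (circles) and in cKO (squares), with 95% intervals from limma, grouped by role. Filled symbols passed the test, dotted lines mark 1.5-fold, and all but 6 genes have only open symbols.

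Most members were measured closely enough to bound their difference. For 32 of the 50 genes in WT and 32 in cKO the whole 95% interval of the difference lay within 1.5-fold in either direction, against 35.8% and 33.6% of all tested genes. Members have higher counts than most genes, and among the 5217 tested genes at or above the members' lower quartile of mean normalized count the same was true of 65.3% in WT and 62.0% in cKO, with 10.4% and 11.7% called. Without a test, 16 members lay higher in both MZ libraries than in both FO libraries of WT, where 28.2% of all genes did, and 12 lay lower, where 27.2% did. In cKO these were 14 members against 32.0% of all genes and 15 members against 33.1%. With the 1.5-fold requirement removed, 10 members passed in WT and 8 in cKO, where 16.9% and 19.6% of all genes did.

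**Figure D2:**
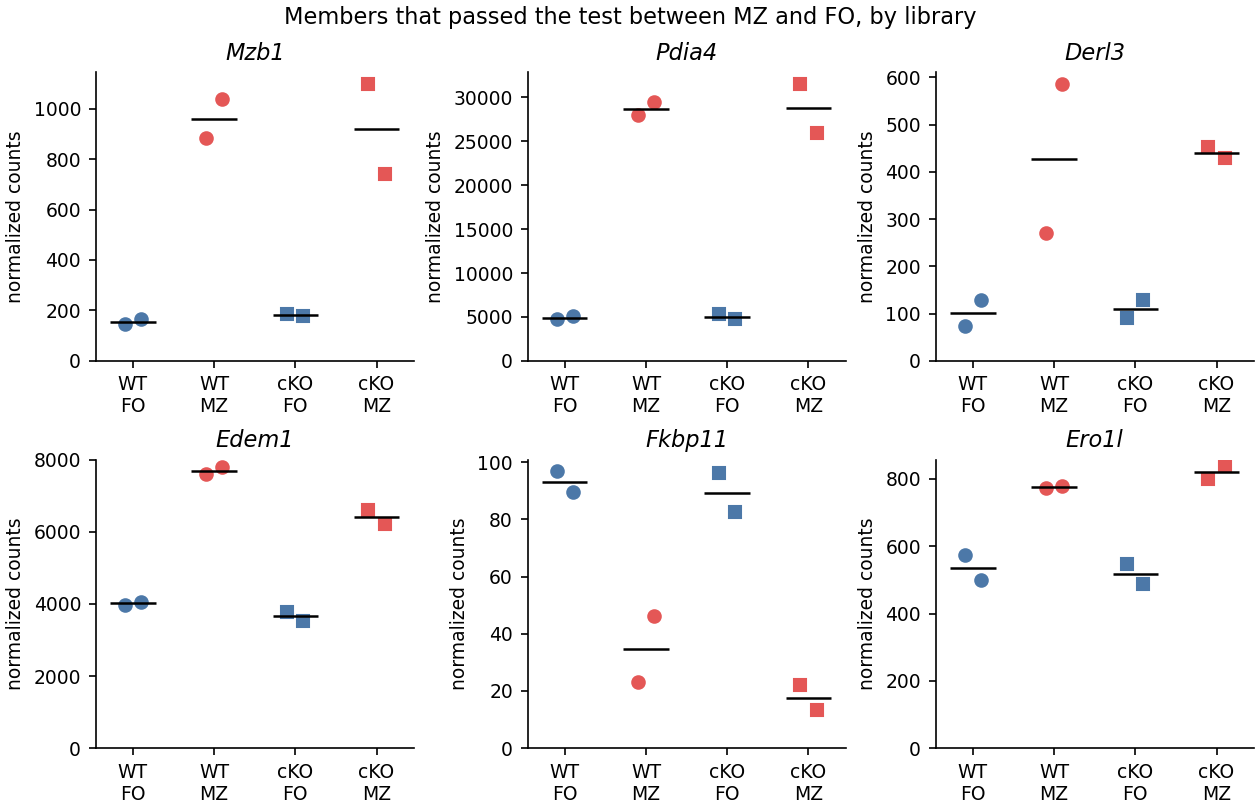
Normalized counts of the 6 called genes in each library, with circles for WT, squares for cKO, blue for FO, red for MZ and a line at the mean of the 2 libraries. Mzb1, Pdia4, Derl3, Edem1 and Ero1l lay higher in all 4 MZ libraries than in all 4 FO libraries, and Fkbp11 lay lower in all 4.

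Among the 12 lumenal chaperones and co-chaperones only Mzb1 was called, in both genotypes. That is 8.33% of the group, against 12.0% of all tested genes in WT and 13.7% in cKO. Mzb1 (ENSMUSG00000024353.5, chr18:35647267-35649367, minus strand) encodes an ER protein of MZ and B-1 B cells that helps to assemble IgM and works with the Hsp90 chaperone of the ER. It read 145 and 167 normalized counts in FO and 883 and 1038 in MZ cells of WT, and 186 and 177 in FO and 1096 and 741 in MZ cells of cKO. Every MZ library lay above every FO library of either genotype, with a difference of 2.61 ± 0.20 (SE) on the log2 scale in WT (adjusted p = 0.00025) and 2.31 ± 0.20 in cKO (adjusted p = 0.00036). In the annotation 57.2% of the exon bases of Mzb1 are shared with SPATA24 on the same strand, so its count depends on how reads in both genes were assigned.

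Hspa5 (BiP, chr2:34771970-34777547, plus strand), the Hsp70 chaperone of the ER lumen and the classic target of the unfolded protein response, was not called. Its levels were 28628 and 17161 in FO and 35300.5 and 22284 in MZ cells of WT, and 26484 and 20299.8 in FO and 27825 and 30872 in MZ cells of cKO. The WT groups overlapped, and the difference was 0.34 ± 0.29 in WT (95% interval -0.33 to 1.01, adjusted p = 0.48) and 0.34 ± 0.29 in cKO (adjusted p = 0.45), an interval too wide to bound the difference to 1.5-fold. Hsp90b1 (GRP94), the Hsp90 chaperone of the ER and the partner of Mzb1, read 15601 and 10139 in FO and 15709.5 and 11528 in MZ cells of WT, and 15445 and 10577 in FO and 13212 and 11211 in MZ cells of cKO. Replicate 1 exceeded replicate 2 in all 4 groups, FO and MZ overlapped in both genotypes, and the differences of 0.098 and -0.071 did not pass.

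Calreticulin and BiP, with Pdia4, had the highest levels per length, at 4309 for Calr, 6173 for Hspa5 and 7029 for Pdia4, in mean normalized counts per kb of exon over the 8 libraries. Calr, a lectin chaperone of glycoproteins, read 14724 and 12480.1 in FO and 12239 and 9888 in MZ cells of WT, and 14433 and 12802 in FO and 11168 and 11546 in MZ cells of cKO. Both MZ libraries lay below both FO libraries in each genotype, and neither difference passed (log2 -0.30 in WT, adjusted p = 0.17, and -0.26 in cKO, adjusted p = 0.22).

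Apart from Mzb1, none of the lumenal chaperones and co-chaperones passed. Dnajc3, which also restrains the kinase Eif2ak3, read 2263 and 2047 in FO and 2685 and 2689 in MZ cells of WT, and 2267 and 1938 in FO and 2565 and 2725 in MZ cells of cKO. Its MZ libraries lay above its FO libraries in both genotypes (log2 0.32, adjusted p = 0.074, and 0.33, adjusted p = 0.058). Sdf2l1, a partner of the ER Hsp40 proteins, read 424 and 354 in FO and 509 and 495 in MZ cells of WT, and 483 and 405 in FO and 553 and 462 in MZ cells of cKO, with log2 differences of 0.37 and 0.19. Manf, a small ER protein that binds BiP, pointed the other way, with 1538 and 1374 in FO and 1320.4 and 1107 in MZ cells of WT, and 1565 and 1429 in FO and 1326 and 1117 in MZ cells of cKO (log2 -0.27 and -0.30, adjusted p = 0.22 and 0.16). Canx, Dnajb11, Creld2 and Hyou1 had log2 differences between -0.22 and 0.044 over both genotypes, and none passed.

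Of the 9 oxidoreductases and prolyl isomerases, Pdia4 showed the smallest adjusted p of all members in both genotypes. Pdia4 (ERp72, ENSMUSG00000025823.9, chr6:47796141-47813430, minus strand) encodes a protein disulfide isomerase. Its counts were 4762 and 5088 in FO and 27967 and 29442 in MZ cells of WT, and 5361 and 4751 in FO and 31525 and 26004 in MZ cells of cKO. The groups stood far apart, with a mean 5.83-fold higher in MZ of WT and 5.69-fold higher in MZ of cKO (log2 2.54 ± 0.12, adjusted p = 3.0e-05, and 2.50 ± 0.12, adjusted p = 3.2e-05). Its relatives were not called. Pdia3, Pdia6 and P4hb had log2 differences between -0.19 and 0.22 over both genotypes, and none passed.

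Ero1l, the oxidase that recharges the disulfide isomerases, read 573 and 499 in FO and 774 and 778 in MZ cells of WT, and 549 and 489 in FO and 800.4 and 840.4 in MZ cells of cKO. Both genotypes were past the adjusted p threshold, but only the cKO difference reached 1.5-fold (log2 0.54 ± 0.12 in WT, adjusted p = 0.018, and 0.66 ± 0.12 in cKO, adjusted p = 0.0071). The difference between these differences was 0.12 (95% interval -0.26 to 0.50, adjusted p = 1.0), so the call in 1 genotype only is not a measured difference between them. Without cKO FO replicate 2 the cKO difference fell to 0.58, without cKO MZ replicate 2 it missed the threshold (adjusted p = 0.056), and without WT FO replicate 1 the gene was called in WT as well, at 0.64. Its paralog Ero1lb, at 693 normalized counts per kb of exon against 125 for Ero1l, lay the other way in both genotypes, with 5301 and 4939 in WT FO against 3687 and 4540.0 in WT MZ and 5678 and 4795 in cKO FO against 3818 and 4147 in cKO MZ (log2 -0.32 and -0.39, adjusted p = 0.13 and 0.071).

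Fkbp11 (ENSMUSG00000003355.7, chr15:98724366-98728198, minus strand), a membrane-bound prolyl isomerase known from secretory cells, was the only member called lower in MZ. It had few counts, 96.8 and 89.4 in FO and 23.1 and 46.2 in MZ cells of WT, and 96.3 and 82.5 in FO and 21.9 and 13.4 in MZ cells of cKO. All 4 MZ libraries lay below all 4 FO libraries (log2 -1.48 ± 0.39 in WT, adjusted p = 0.039, and -2.31 ± 0.39 in cKO, adjusted p = 0.0061). The WT call was fragile. It was lost when any 1 of the libraries other than WT MZ replicate 2 was left out (adjusted p from 0.0503 to 0.17), and the cKO call was lost without cKO FO replicate 1 (adjusted p = 0.051). Fkbp2, a lumenal prolyl isomerase, read 737 and 593 in FO and 449 and 489.9 in MZ cells of WT, and 612 and 589.8 in FO and 456 and 444 in MZ cells of cKO, and its WT difference of -0.49 passed on its adjusted p of 0.041 by limma but not on the fold. Without WT FO replicate 2 it also reached the fold, at -0.65. Ppib, the ER cyclophilin, differed by -0.20 and -0.018, and 825 of its exon bases are shared with Snx22 on the other strand, which reads counted without strand cannot separate.

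No subunit of the translocon or the signal peptidase was called in either genotype, against 12.0% of all tested genes in WT and 13.7% in cKO. In WT the 95% interval lay within 1.5-fold for all 13 genes, and in cKO for 12 of the 13, with Sec61g the exception. The largest differences were those of Ssr2, a subunit of the translocon-associated complex, with 1119.7 and 1268 in WT FO and 1379 and 1466 in WT MZ (log2 0.25, adjusted p = 0.14) and 1156 and 1261 in FO and 1418 and 1339 in MZ cells of cKO (0.19, adjusted p = 0.23), and of Sec61g, the gamma subunit of the channel. Sec61g read 442 and 355 in FO and 475 and 432 in MZ cells of WT, and 432 and 464 in FO and 602 and 507 in MZ cells of cKO, a difference of 0.19 in WT and 0.30 in cKO (adjusted p = 0.45 and 0.21).

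Sec11c, a catalytic subunit of the signal peptidase, read 5225 and 5329.6 in FO and 5662 and 6243 in MZ cells of WT, and 5071 and 5796 in FO and 6267 and 6058 in MZ cells of cKO (log2 0.17 and 0.18). Sec61a1, the pore-forming subunit, read 3345 and 3153 in FO and 3648 and 3478 in MZ cells of WT, and 3390.4 and 3197 in FO and 3368 and 3485 in MZ cells of cKO, with differences of 0.13 and 0.058. The other 9 genes of the group (Sec61b, Sec62, Sec63, Ssr1, Ssr3, Ssr4, Spcs1, Spcs2 and Spcs3) ranged from -0.19 for Sec62 to 0.19 for Sec61b, both in WT. The median of the group was 0.056 in WT and 0.058 in cKO.

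The cargo exit and retrieval genes were not called either. The receptors Kdelr1 and Kdelr2, which return chaperones with a KDEL tail from the Golgi, differed by -0.0034 and 0.014 in WT and by -0.097 and 0.094 in cKO, with 95% intervals within 1.5-fold for both genes in both genotypes. Kdelr1 read 1280.4 and 1349 in FO and 1313 and 1309.5 in MZ cells of WT, and 1220.4 and 1409 in FO and 1216 and 1236 in MZ cells of cKO, and Kdelr2 read 669.6 and 733, 666 and 751, 644 and 601 and 727 and 606 in the same order. Sec24d, a cargo-binding subunit of the COPII coat, was scarce and noisy, with 116 and 167 in FO and 67.4 and 129.5 in MZ cells of WT, and 103 and 70.5 in FO and 82.7 and 67.0 in MZ cells of cKO. Its groups overlapped in both genotypes and its difference of -0.57 in WT had a 95% interval of -1.42 to 0.28.

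Of the 10 genes of ER-associated degradation, 2 were called higher in MZ in both genotypes and none lower. Over all tested genes 7.41% were called higher and 4.62% lower in WT, and 8.18% and 5.54% in cKO. With 10 genes, 2 calls do not set the group apart from that background. Edem1 (ENSMUSG00000030104.9, chr6:108828641-108859356, plus strand), which trims mannose from misfolded glycoproteins and so marks them for disposal, read 3971 and 4062 in FO and 7591 and 7792 in MZ cells of WT, and 3787 and 3539 in FO and 6607 and 6227 in MZ cells of cKO. The replicates were close and the subsets clearly apart (log2 0.94 ± 0.08 in WT, adjusted p = 0.00039, and 0.81 ± 0.08 in cKO, adjusted p = 0.00061). Derl3 (ENSMUSG00000009092.5, chr10:75893413-75895941, plus strand), a derlin of the retrotranslocation channel, read 74.8 and 128 in FO and 269.7 and 585 in MZ cells of WT, and 90.7 and 128 in FO and 452 and 429 in MZ cells of cKO. All MZ libraries exceeded all FO libraries, although the WT MZ replicates differed more than 2-fold from each other (log2 2.01 ± 0.39, adjusted p = 0.013, and 2.02 ± 0.39, adjusted p = 0.011). The Derl3 call was lost in WT without WT FO replicate 1 (1.62, adjusted p = 0.065) and with only the WT libraries fitted (adjusted p = 0.074), and in cKO without cKO FO replicate 1, cKO MZ replicate 1 or cKO MZ replicate 2 (1.78 to 2.06, adjusted p from 0.062 to 0.083).

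The close relatives of both genes were not called. Edem2 read 1282 and 1397 in FO and 1709.5 and 1651 in MZ cells of WT, and 1279.8 and 1441 in FO and 1510.0 and 1601 in MZ cells of cKO and did not pass (0.33 and 0.20, adjusted p = 0.058 and 0.21). Edem3 pointed down, with 2250.4 and 2130.1 in FO and 1769 and 1678 in MZ cells of WT, and 2002 and 2002 in FO and 1507 and 1516 in MZ cells of cKO, and passed on its adjusted p by limma in both genotypes without reaching 1.5-fold (-0.35, adjusted p = 0.024, and -0.41, adjusted p = 0.011). Derl1 and Derl2 differed by 0.26 and -0.016 in WT and by 0.13 and -0.0069 in cKO, and neither passed.

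Herpud1, the scaffold that recruits derlins to the ubiquitin ligase Syvn1 and itself a target of the unfolded protein response, read 4342 and 4028 in FO and 3046 and 2771 in MZ cells of WT, and 4295 and 4283 in FO and 2859 and 2955 in MZ cells of cKO. Both genotypes gave lower values in MZ without overlap, past the adjusted p and just short of 1.5-fold (-0.53 ± 0.08, adjusted p = 0.0059, and -0.56 ± 0.08, adjusted p = 0.0038). It reached 1.5-fold when WT MZ replicate 1 was left out in WT (-0.59) and when cKO MZ replicate 2 was left out in cKO (-0.59). Syvn1, its adaptor Sel1l and the linker Selenos did not pass, with log2 differences between -0.17 and 0.049 over both genotypes.

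None of the 3 sensors was called, where 12.0% of all tested genes were called in WT and 13.7% in cKO. Atf6, the sensor that is cleaved into a transcription factor, came nearest. It read 3354 and 3313 in FO and 4148 and 4525 in MZ cells of WT, and 3241 and 3157 in FO and 3674 and 3772 in MZ cells of cKO, higher in every MZ library than in every FO library, with 0.38 ± 0.08 in WT (adjusted p = 0.017) and 0.22 ± 0.08 in cKO (adjusted p = 0.095), both under 1.5-fold. Ern1, the kinase and nuclease that splices Xbp1 mRNA, read 261 and 359.6 in FO and 364 and 491 in MZ cells of WT, and 296 and 248 in FO and 299 and 310.4 in MZ cells of cKO (0.46 and 0.17, adjusted p = 0.19 and 0.61). Eif2ak3, the kinase that slows translation, had FO and MZ values that overlapped in WT, with 5767 and 4291 against 4391 and 3609, and lower MZ values in cKO, with 5680.1 and 5806 against 3705 and 4662 (-0.32 and -0.47, adjusted p = 0.26 and 0.098).

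Xbp1, the transcription factor downstream of Ern1 and no member, did not pass, with 2764 and 2520.2 in FO and 2947 and 2789 in MZ cells of WT, and 2632 and 2014 in FO and 2532 and 2129 in MZ cells of cKO (0.12 and 0.012, adjusted p = 0.64 and 0.97). Gene-level counts do not show how much of it was spliced. Of the 12 members with an ERSE or ERSE-II, Derl3 alone was called, in both genotypes, and the median differences were 0.0034 in WT and -0.14 in cKO. Of the 28 with a window and neither motif, 3 were called in WT and 4 in cKO, with medians of 0.0016 and -0.0047. Over all tested genes 12.0% were called in WT and 13.7% in cKO. Whether the 2 sets of members differ in their calls was not tested.

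The test of whether the subset difference depended on genotype called none of the 50 genes by limma, where 0% of all tested genes were called. At an unadjusted p under 0.05 stood 0 members and 94 of the 14761 tested genes. DESeq2 and edgeR on the recovered reads called none either. The largest such difference was that of Fkbp11, -0.83, with a 95% interval of -2.11 to 0.45 that holds 0. Compared directly, cKO and WT differed in none of the 50 genes by limma, DESeq2 or edgeR, neither in MZ (0.0339% of all genes called) nor in FO (0.0677% of all genes called). An unadjusted p under 0.05 was found for 5 members and 596 of the 14761 tested genes in MZ and for 0 members and 382 genes in FO. The smallest unadjusted p in MZ was that of Edem1, which was lower in cKO MZ than in WT MZ by a log2 difference of -0.26 (95% interval -0.45 to -0.078, adjusted p = 1.0). For 42 members in MZ and 41 in FO, the whole 95% interval of the genotype difference lay within 1.5-fold. These comparisons of genotypes also compare libraries of different sex.

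Summed, the reads of the 50 genes made up 0.745% and 0.647% of all reads on genes in FO and 0.9% and 0.834% in MZ cells of WT, and 0.747% and 0.667% in FO and 0.891% and 0.848% in MZ cells of cKO. Every MZ library lay above every FO library. Pdia4 alone accounted for most of the gap, as it took 0.0195% to 0.0222% of reads in the FO libraries and 0.113% to 0.141% in the MZ libraries. Without Hspa5, Pdia4 and Hsp90b1 the other members held 0.511% to 0.5512% in FO and 0.5513% to 0.566% in MZ. Every MZ library still lay above every FO library, though the ranges nearly touch. The sum has no test of its own.

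**Figure D3:**
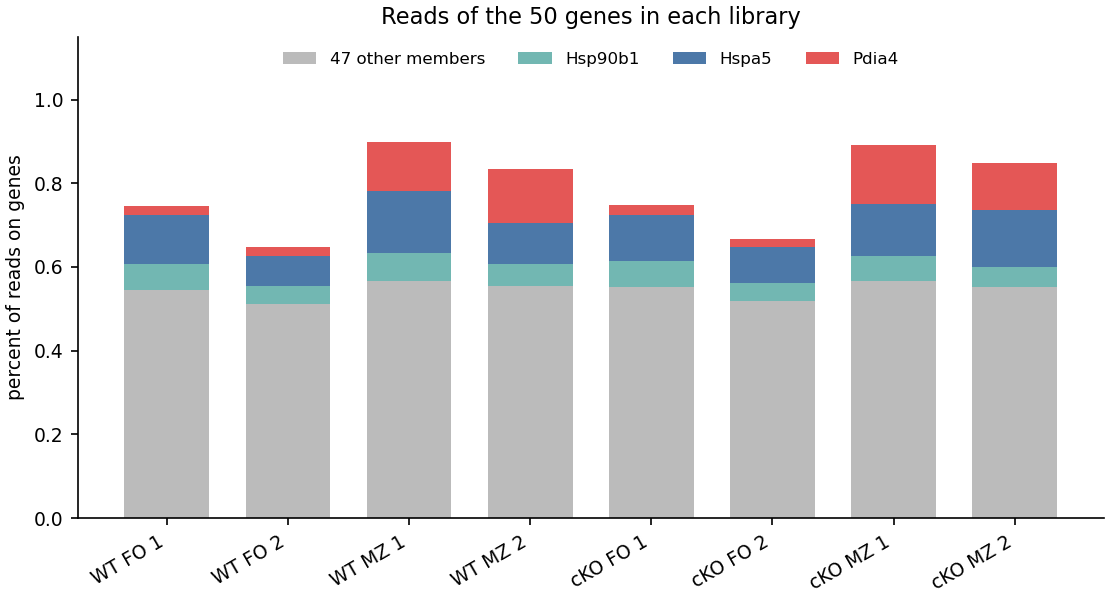
Percent of all reads on genes that fell on the 50 genes in each library, stacked as the 47 other members (grey), Hsp90b1, Hspa5 and Pdia4. The Pdia4 segment is several times taller in the 4 MZ libraries, and the grey segment lies between 0.511% and 0.566% in all 8.

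A few members varied more between the 2 libraries of a group than most genes did. The mean absolute log2 ratio of replicate 1 to replicate 2 over the 4 groups was 0.74 for Dnajb9, 0.61 for Derl3, 0.58 for Sec24d, 0.49 for Fkbp11, 0.48 for Hspa5 and 0.46 for Hsp90b1, where the median was 0.155 over the members and 0.224 over all tested genes. Dnajb9, a BiP co-chaperone, read 5219 and 2542 in FO and 6942 and 2922 in MZ cells of WT, and 5131 and 3731 in FO and 4794 and 5518 in MZ cells of cKO (MZ minus FO 0.31 and 0.23, neither passed). Like Hspa5 and Derl1, it was high in replicate 1 of WT FO, WT MZ and cKO FO and in replicate 2 of cKO MZ. Pdia4, Edem1 and Mzb1 did not share this order of libraries.

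The genes outside the list whose 8 library values tracked Hspa5 most closely, among 10178 genes with a mean of at least 100 normalized counts, were the immediate early genes Nr4a2 (Pearson r = 0.98 over 8 libraries) and Atf3 (r = 0.977) and the chemokine gene Ccl4 (r = 0.978). Atf3 read 1421 and 147 in FO and 6474 and 693 in MZ cells of WT, and 1306 and 574 in FO and 2295 and 3947 in MZ cells of cKO, the same order of libraries as Hspa5 within each group. What set this order was not tested. The genes most like Mzb1 were Scd2 (a fatty acid desaturase, r = 0.994), Ocrl (r = 0.994) and Xrcc1 (r = 0.994), and Pdia4 among the members had r = 0.996. These correlations describe 8 libraries that share 4 groups and are given without a test.

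**Figure D4:**
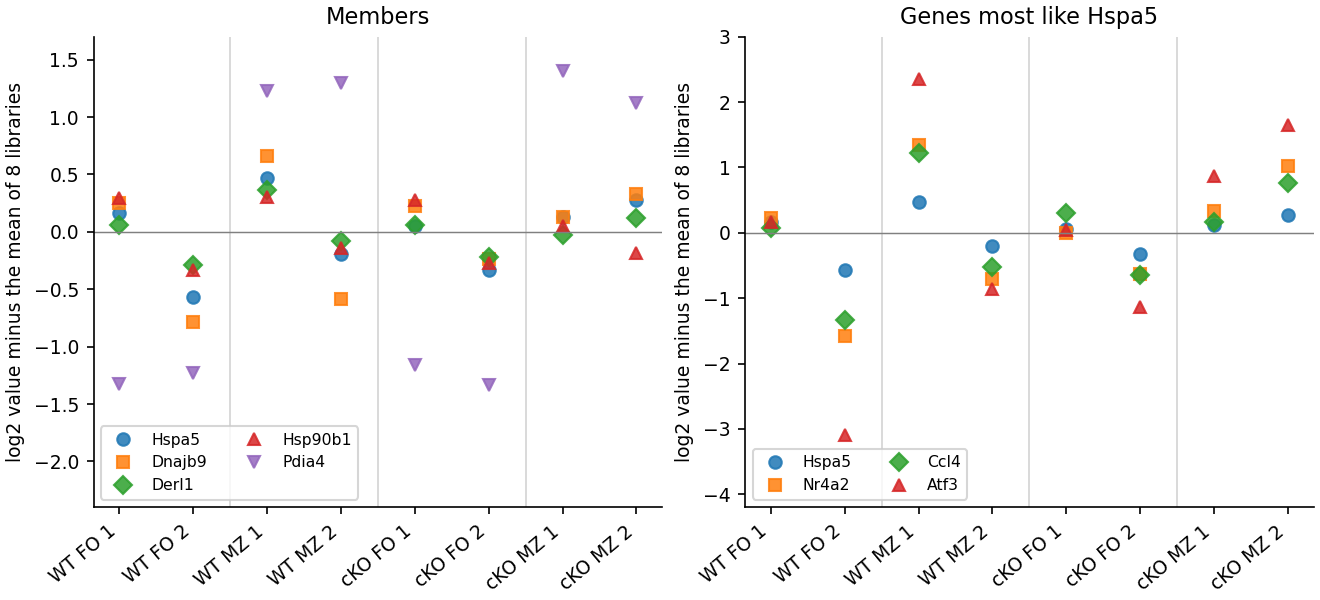
The log2(normalized count + 1) of single genes in each library minus that gene's mean over the 8 libraries, for 5 members (left) and for Hspa5 with the 3 genes most like it (right). Hspa5, Dnajb9 and Derl1 are high in the same library of each pair, as are Nr4a2, Ccl4 and Atf3, while Pdia4 separates FO from MZ.

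Markers of plasma cells were examined beside these results, since plasma cells carry much secretory machinery. The 8 plasma cell markers summed to 20377 to 34199 normalized counts in the FO libraries and 26091 to 44183 in the MZ libraries, most of it Irf4 and Tnfrsf13b, which B cells that are not plasma cells also express. Jchain read 619 and 968 in FO and 305 and 3692 in MZ cells of WT, and 1473 and 297 in FO and 1615 and 524 in MZ cells of cKO, Sdc1 (CD138) read 331 to 463 in FO and 27.0 to 101 in MZ, and Tnfrsf17 (BCMA) read at most 8.15 anywhere. Prdm1 (Blimp-1), the transcription factor of plasma cell differentiation, read 153 and 77.1 in FO and 594 and 279 in MZ cells of WT, and 134 and 80.5 in FO and 322 and 351 in MZ cells of cKO. By limma it was called higher in MZ in both genotypes (log2 1.90 ± 0.44, adjusted p = 0.025, and 1.68 ± 0.44, adjusted p = 0.034). Sdc1 was called lower in MZ in both (log2 -2.76 ± 0.52, adjusted p = 0.011, and -3.22 ± 0.52, adjusted p = 0.0049). Jchain, Irf4, Slamf7 and Tnfrsf13b were called in neither genotype, and Tnfrsf17 and Cd28 were too low to be tested. The part of plasma cell RNA in the differences of the members was not tested. Without cKO MZ replicate 1, the library with erythroid and granulocyte RNA, Mzb1, Pdia4, Edem1 and Ero1l were called higher and Fkbp11 lower in cKO, and Derl3 was not called. Without cKO FO replicate 1, the library of both sexes, Mzb1, Pdia4, Edem1 and Ero1l were called, and Derl3 and Fkbp11 were not.

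Of 99 further genes listed by function, 97 were tested (Pdia5 and Kdelr3 were too low). In WT 2 were called higher and 1 lower, or 3.09% of the 97 against 12.0% of all tested genes, and in cKO 4 higher and 2 lower, or 6.19% against 13.7%. None of the 8 genes of the signal recognition particle and its receptor, the 9 translocon partners, the 11 oligosaccharyltransferase subunits, the 12 COPII coat genes and the 12 further degradation genes was called in either genotype. Their members with the smallest p in WT were Srp54a (0.74, adjusted p = 0.13), Tram2 (-0.45, adjusted p = 0.24), Krtcap2 (-0.54, adjusted p = 0.019), Sec23a (-0.39, adjusted p = 0.13) and Vcp (0.30, adjusted p = 0.14), of which Krtcap2 passed the adjusted p without the fold.

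Copg2, a subunit of the COPI coat, was called higher in MZ in both genotypes, with 936 and 1242 in FO and 2398 and 2286 in MZ cells of WT, and 1080.5 and 1234 in FO and 2479.8 and 2362 in MZ cells of cKO (1.12 and 1.07, adjusted p = 0.002 and 0.0021), and it was the only one of 8 tested COPI genes to pass. Among 16 effectors of the unfolded protein response, Wfs1, a membrane protein of the ER, was called higher in both genotypes (216 and 210.3 against 344 and 397 in WT, 0.79, and 175 and 229 against 359 and 352 in cKO, 0.82). The Wfs1 call was lost without WT FO replicate 1, WT FO replicate 2 or WT MZ replicate 2 in WT (0.69 to 0.81), with only the WT libraries fitted (adjusted p = 0.055), and without cKO FO replicate 1, cKO MZ replicate 1 or cKO MZ replicate 2 in cKO (0.63 to 0.84). Trib3, a pseudokinase induced under ER stress, was called lower in both, from few counts (71.9 and 35.2 against 18.3 and 9.06 in WT, -1.88, and 66.1 and 50.3 against 12.0 and 14.4 in cKO, -2.05). It was lost in WT without any 1 library other than WT FO replicate 2 or WT MZ replicate 1 (adjusted p from 0.057 to 0.17), and in cKO without any 1 cKO library (adjusted p from 0.069 to 0.13).

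In cKO, Sil1, a nucleotide exchange factor of BiP (303 and 389 in FO, 543 and 522 in MZ, 0.63), and the glycoprotein glucosyltransferase gene Uggt2 (32.5 and 38.2 in FO, 69.8 and 100.0 in MZ, 1.22) were called higher. Txndc5, a disulfide isomerase, was called lower there (4264 and 4313 in FO, 2434 and 1939 in MZ, -0.98, adjusted p = 0.049), and in WT its difference was -0.97 (adjusted p = 0.056), which was called by DESeq2 (adjusted p = 0.0038) and without WT MZ replicate 2 (-1.42, adjusted p = 0.0065). The interaction with genotype passed for none of the 97 genes. Txndc5 and Uggt2 lost the cKO call without any 1 of the 4 cKO libraries (log2 -1.15 to -0.82 and 0.97 to 1.48), and Sil1 without cKO FO replicate 1, cKO MZ replicate 1 or cKO MZ replicate 2 (0.45 to 0.66). The cKO call was also lost with quantile normalization for all 3 genes, and for Txndc5 with no filter, TMM factors, scaling per total reads and edgeR, so that Txndc5 was called in 8 of 17 alternatives. Prkcsh, the regulatory subunit of glucosidase II (0.55 in WT, adjusted p = 0.013), Qsox1, a disulfide-forming oxidase (0.55, adjusted p = 0.034), and Rpn2 (0.27, adjusted p = 0.047) passed the adjusted p in WT without 1.5-fold.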

How the data were processed

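Total RNA of sorted FO and MZ B cells was depleted of ribosomal RNA and sequenced as single-end reads by the authors, who aligned the reads to mm10 with HISAT2 and counted genes with featureCounts and HTSeq. Versions and strandedness are not given in the sources used here. The deposited signal values are counts divided by DESeq2 size factors, so that whole reads could be recovered for 100% of values (tolerance 0.02 reads). The 8 ATAC-seq samples were not used here.

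Genes with a mean of at least 10 normalized counts (14761) were tested with limma 3.58.1 (R 4.3.3) on log2(normalized count + 1), with the 4 groups of 2 libraries in 1 fit, an intensity trend and Benjamini-Hochberg adjustment. A fold change on this scale understates the change of low genes. With 2 libraries against 2, an exact permutation test of 1 gene cannot reach 0.05, so such tests were not used. Calls needed an adjusted p of at most 0.05 and 1.5-fold. On simulated counts for MZ against FO in WT (14761 genes) limma called 100 of 100 genes changed 4-fold, 84 of 100 changed 2-fold and 7 unchanged genes. DESeq2 and edgeR called 88 and 87 of those changed 2-fold and 20 and 7 unchanged genes. The simulation gave all genes the same dispersion and changed only genes with a mean of at least 100 normalized counts. Its shares therefore do not apply to scarcer genes or to genes that vary more between replicates. DESeq2 1.42.0 and edgeR 4.0.16 on recovered reads, other scalings, pseudocounts and filters, and leaving out each library were alternatives. The libraries held 21546552 to 25083552 reads on genes.

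Members and lists were chosen with earlier results of these data known. Library values are given for the sensors, Hspa5, Hsp90b1, Mzb1 and Xbp1, the 3 members with the highest level per kb, the 3 with the smallest p per role in each genotype and members called in 1 genotype, and others (Dnajb9, Ero1lb, Edem2, Edem3 and Fkbp2) were added after their values were seen. Coordinates are from GENCODE M21 (GRCm38), with exon lengths as unions. Promoter windows are from RefSeq (GRCm38.p6), and the 17 printed sequences equalled the genome.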

Additional observations from a re-analysis of the deposited data

How the results depend on the processing

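Mzb1, Pdia4 and Edem1 were called higher in MZ in both genotypes under the 17 alternatives that kept the 1.5-fold cutoff. At 2-fold Mzb1, Pdia4 and Derl3 were called in both genotypes and Edem1 in neither, and no alternative called a member for the interaction or for cKO against WT. The calls near the thresholds moved. In WT the number of members called lower was 0 with no filter, 0 per total reads, 0 with only the WT libraries fitted and 4 with no fold cutoff, and it ranged from 0 to 1 when single libraries were left out. In cKO the number called higher was 3 at 2-fold and 3 to 5 with single libraries left out, and the number called lower was 3 with no fold cutoff and 0 to 2 with single libraries left out. Over all genes, MZ against FO gave 1094 higher and 682 lower in WT and 1208 and 818 in cKO. Fitting only the WT libraries gave 636 and 378 in WT, and leaving out 1 cKO library gave as few as 638 and 435 in cKO. The lower calls numbered 390 and 444 at 2-fold and 1108 and 1371 with no fold cutoff. The cause was not tested, but a fit on fewer libraries has fewer degrees of freedom. For cKO against WT, DESeq2 called 31 higher and 19 lower in MZ and 19 and 6 in FO, against 5 and 0 and 8 and 2 by limma, and no member was among them. Without the 3 most abundant members the mean summed share of the FO libraries was 0.527% (WT) and 0.534% (cKO) and that of the MZ libraries 0.561% and 0.559%, against 0.696%, 0.707%, 0.867% and 0.87% with them.

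The replicate numbers were not shown to pair the libraries. Deviations of same-numbered libraries correlated at 0.591 between WT FO and WT MZ, -0.0015 between cKO FO and cKO MZ and -0.296 between WT MZ and cKO MZ. With a replicate block the members called were 4 higher and 1 lower in WT and 5 higher and 1 lower in cKO, as without it, and 0 in the other comparisons. The block fits 1 replicate effect shared by all 4 groups. It cannot fit a pairing present in WT alone, so the unchanged counts do not decide whether the WT libraries were paired. Of the named genes that are no members, Txndc5 was called with the block in WT (-0.97, adjusted p = 0.036). With the numbers crossed, an alternative chosen after seeing the data, cKO against WT in MZ also called 0 members.

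Of the named differences, those that changed sign were small and passed no test. By quantile normalization Hsp90b1 in cKO became 0.063, Kdelr1 in WT 0.011 and Kdelr2 in WT -0.033, and per total reads Hsp90b1 in cKO became 0.017 and Kdelr1 in WT 0.050. With 1 library left out, WT differences ranged from -0.030 to 0.71 for Hspa5, -0.21 to 0.41 for Hsp90b1, -0.32 to 0.93 for Dnajb9, -0.041 to 0.034 for Kdelr1 and -0.071 to 0.10 for Kdelr2. The cKO differences ranged from -0.34 to 0.20 for Hsp90b1, -0.46 to 0.079 for Sec24d, -0.20 to 0.0067 for Kdelr1, -0.037 to 0.22 for Kdelr2, -0.012 to 0.27 for Derl1 and -0.18 to 0.21 for Xbp1.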
